A study of Mus musculus with 4 samples.

Results

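The genes described here are 10 imprinted genes that act on fetal growth: Igf2, Dlk1, Peg3, Plagl1 and Mest, which are expressed from the paternal allele, and H19, Cdkn1c, Igf2r, Meg3 and Grb10, which are expressed from the maternal allele. They were chosen by the signal of Igf2, which was far higher in MCK-PPARb muscle in earlier results on these arrays, so the values of Igf2 are given as a description, without a test. A probe set was taken for a gene when the platform annotation gave that gene symbol alone. This held for 9 of the 10 genes, with 20 probe sets of the 22626 on the array that are not controls. The only probe set of H19 is annotated to both H19 and Mir675. Its values are therefore given under both names, and it is left out of the counts of genes. Where a gene had several probe sets, the one of highest mean log2 signal over the 4 arrays represents it.

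Imprinted genes are transcribed mainly or only from the allele inherited from 1 parent, in most cases through DNA methylation set in the germ line. Igf2 and H19 lie next to each other and share enhancers. These act on Igf2 on the paternal chromosome, and on H19 on the maternal one, where CTCF binds an insulator. Several paternally expressed genes promote fetal growth and several maternally expressed ones restrain it, and the transcripts of many of them fall after birth. Parental origin is given as known from other studies of mouse tissues. Grb10 is an exception to a fixed origin, being paternally expressed in neurons. These arrays do not tell the alleles apart, so nothing below measures imprinting itself.

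The study set muscle that overexpresses the nuclear receptor PPARbeta (gene Ppard) beside normal muscle, using the gastrocnemius, which lies in the calf and has mostly fast fibres. There were 2 arrays of MCK-PPARb transgenic mice, in which PPARbeta is overexpressed specifically in muscle, and 2 arrays of their non-transgenic, wild-type littermates. All mice were 6 weeks old, and the strain is not given in the sources used here. MCK is the usual short form for muscle creatine kinase, whose promoter is active in differentiated muscle fibres; the labels do not spell it out. Whether the paired arrays are separate mice is not certain, since the titles name biological replicates while the design text can be read as repeat arrays, so the p-values measure only the spread between these arrays, which may be technical.

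Micro-RNA genes lie inside members of this group, Mir675 within H19 and Mir483 within Igf2. Their mature sequences from RefSeq (GRCm38.p6) are shown because the H19 probe set carries the name of Mir675 and because both share a host transcript with the genes of highest signal. The seed, bases 2 to 8, is in capitals, and the 4 seeds differ from each other. The arrays measured none of the mature micro-RNAs.
mmu-miR-675-3p (chr7:142577078-142577099, minus strand): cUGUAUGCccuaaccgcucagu
mmu-miR-675-5p (chr7:142577112-142577133, minus strand): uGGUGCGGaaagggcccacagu
mmu-miR-483-3p (chr7:142654932-142654952, minus strand): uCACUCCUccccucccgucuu
mmu-miR-483-5p (chr7:142654968-142654989, minus strand): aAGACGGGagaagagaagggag

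RefSeq places 15 promoters for 8 of the members in this build, 4 of them for Igf2, whose transcripts start at several sites. None was available here for H19 or Cdkn1c. The Igf2 promoters are shown because Igf2 had the largest difference among the members, and the deposited values do not tell which start site was used. The 250 bases before each start were searched on both strands for the E-box CANNTG, its form CAGCTG, the nuclear receptor motif AGGTCA, that motif repeated after 1 free base (the direct repeat called DR1), the TATA box TATAAA and a run of 4 G directly followed by 4 C, taken as a core of the Plagl1 motif. CAGCTG hits are also CANNTG hits, and a DR1 would also count as AGGTCA. Matches are in capitals.
Igf2, bases 120 to 1 before the start, chr7:142657497-142657616, minus strand: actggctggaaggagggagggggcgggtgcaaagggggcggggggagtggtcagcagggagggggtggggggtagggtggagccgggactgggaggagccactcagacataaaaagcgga
Igf2, bases 120 to 1 before the start, chr7:142658805-142658924, minus strand: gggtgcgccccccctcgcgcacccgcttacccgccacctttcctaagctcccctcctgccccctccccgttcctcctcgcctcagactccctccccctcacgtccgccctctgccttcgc
Igf2, bases 120 to 1 before the start, chr7:142661272-142661391, minus strand: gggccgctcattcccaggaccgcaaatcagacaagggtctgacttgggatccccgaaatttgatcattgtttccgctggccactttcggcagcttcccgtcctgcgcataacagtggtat
Igf2, bases 250 to 1 before the start, chr7:142666817-142667066, minus strand: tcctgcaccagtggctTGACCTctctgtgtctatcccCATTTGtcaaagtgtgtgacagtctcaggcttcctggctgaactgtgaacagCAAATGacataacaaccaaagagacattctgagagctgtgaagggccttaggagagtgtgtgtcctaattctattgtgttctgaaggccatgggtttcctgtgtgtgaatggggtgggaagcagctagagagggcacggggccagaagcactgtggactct
The Igf2 start of highest coordinate held 2 matches to CANNTG and 1 to AGGTCA, and no searched motif was found before the other 3 starts. Of the 32851 promoters in the table, 66.2% held CANNTG and 14.0% held AGGTCA. DR1 was found in none of the 15 member promoters and in 0.0335% of all promoters. CANNTG was found in 8 of the 15, AGGTCA in 3 and CAGCTG in 1, the last in 13% of all promoters. Among the 8 are 2 Mest promoters that overlap almost wholly and share the same CANNTG site. By gene, CANNTG was found for 6 of the 8 members. TATAAA was in 1, before Meg3, and in 12.4% of all promoters. The run of G and C was in 1, before Peg3, and in 0.889% of all promoters. These matches are a description of letters only.

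Values are signal intensities per probe set, scaled by the authors to a common level, with a trimmed mean of 1501 units on each array. Ppard, the overexpressed gene, read 126049 and 98797 in MCK-PPARb muscle, against 2169 and 2825 in non-transgenic muscle, which fits the labels. All 10 skeletal muscle marker genes, among them Ckm and Acta1, were above the filter, with no call among them. All had a lower mean in MCK-PPARb muscle (log2 differences of -0.43 to -0.15, median -0.33), with overlapping groups. Their summed signal was 2314601 units on non-transgenic replicate 1 and 1230125 to 1468384 units on the other arrays. On non-transgenic replicate 1, 4.20% of all signal lay in the 10 probe sets of highest signal, and on the other arrays 2.36% to 2.78%. The groups were compared with limma on log2 signals over the 11313 probe sets with a mean log2 signal above the level of 444 units, the median probe set. An adjusted p under 0.05 counts as a call. Each difference is the MCK-PPARb mean minus the non-transgenic mean of log2 signals, with its standard error (SE) from that fit and n = 2 arrays per group. An exact permutation test on 2 arrays against 2 reaches at best p = 0.333, and the calls use a spread shared over probe sets by limma.

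By the probe set that represents each gene, the largest differences among the 10 genes were those of Igf2, Cdkn1c and H19, all in distal chromosome 7. Igf2, a secreted growth factor of the insulin family, read 85403 and 82189 units in MCK-PPARb muscle, against 4719 and 3985 units in non-transgenic muscle. Both MCK-PPARb arrays lay far above both non-transgenic ones, and the 2 arrays of each group lay close together. The difference was 4.27 ± 0.18 (SE), a 19.3-fold higher signal. The second Igf2 probe set was dim and below the filter, with 3182 and 726 units against 17.4 and 14.3 units. Its non-transgenic signals lay below 33.9 units, the 10th percentile of all signals, so no fold is given, and its MCK-PPARb arrays differed from each other several times over.

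Cdkn1c encodes p57Kip2, a cyclin-dependent kinase inhibitor that holds cells out of the cell cycle, also in differentiating muscle. Its only probe set read 21070 and 16234 units in MCK-PPARb muscle, against 6646 and 4765 units in non-transgenic muscle. The groups did not overlap. With limma, Cdkn1c rose 3.29-fold (log2 1.72 ± 0.23 SE, adjusted p = 0.0299). The adjusted p was 0.0755 without MCK-PPARb replicate 1 and 0.150 without the intensity trend of limma, and lay between 0.000122 and 0.150 under all alternatives run.

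The probe set of H19 and Mir675 read 123207 and 103169 units in MCK-PPARb muscle, against 60054 and 57849 units in non-transgenic muscle. H19 is a long non-coding RNA whose transcript also gives rise to miR-675, shown above. Both MCK-PPARb arrays were above both non-transgenic arrays. The difference was 0.94 ± 0.19, 1.91-fold, with an adjusted p of 0.112 with limma, so it did not pass. It passed with quantile normalization (1.06, adjusted p = 0.0104) and without non-transgenic replicate 1 (0.96, adjusted p = 0.0373) or 2 (0.91, adjusted p = 0.0376), and its adjusted p ran from 0.0104 to 0.713 over the alternatives.

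**Figure D1:**
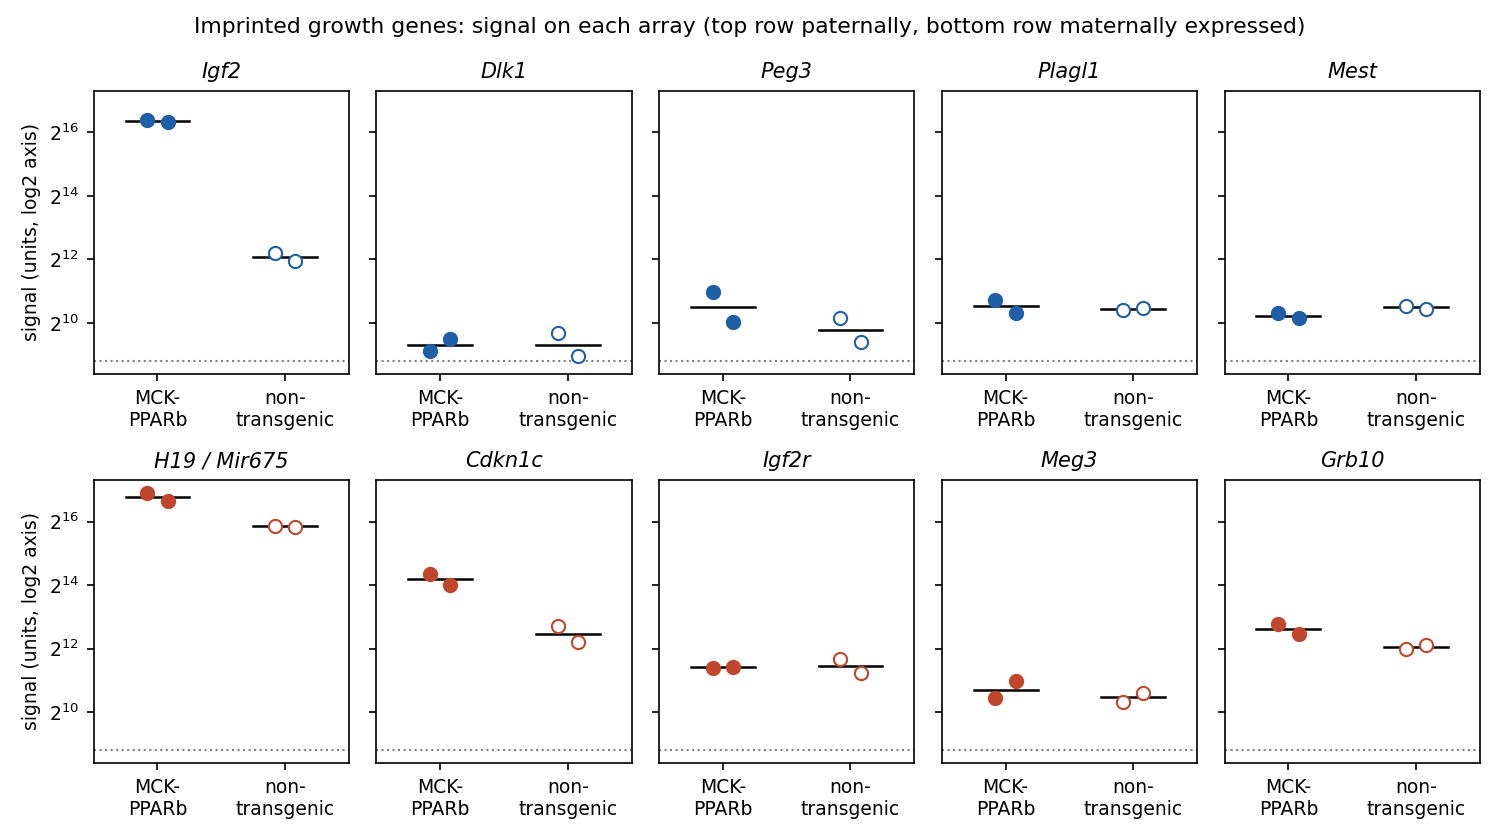
Signal of each gene on each array (log2 axis), MCK-PPARb filled on the left and non-transgenic open on the right of each panel; points are arrays, bars are group means of log2 signal, and the dotted line is the filter level of 444 units. Igf2, the H19 and Mir675 probe set, Cdkn1c and Grb10 lie higher on both MCK-PPARb arrays, Mest lies lower on both, and the groups of the other 5 overlap.

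Igf2r and Grb10 are the members that act at receptors. Igf2r, the receptor that takes up and degrades IGF2 and also carries mannose 6-phosphate proteins, read 2681 and 2751 units in MCK-PPARb muscle, against 3278 and 2380 units in non-transgenic muscle. The groups overlapped, and the difference was -0.04 ± 0.23 (adjusted p = 0.971 with limma). Its other probe set read 2584 and 2439 units against 2078 and 1603 units, without overlap (0.46 ± 0.23, adjusted p = 0.553). The 2 probe sets thus differed in sign, and neither passed.

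Grb10, an adapter that binds the insulin and IGF1 receptors and dampens their signal, read 6933 and 5573 units in MCK-PPARb muscle, against 4043 and 4380 units in non-transgenic muscle. Both MCK-PPARb arrays were higher, with a difference of 0.56 ± 0.20 that did not pass (adjusted p = 0.365 with limma, unadjusted 0.0254). The other 2 Grb10 probe sets had differences of 0.40 ± 0.43 and 0.79 ± 0.48, and their groups overlapped. The dimmer of them read 927 and 405 units against 409 and 306 units and was kept through MCK-PPARb replicate 1.

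Dlk1 and Meg3 are neighbours in another imprinted domain, on chromosome 12. Dlk1, a transmembrane relative of the Notch ligands that restrains fat cell differentiation, read 552 and 712 units in MCK-PPARb muscle, against 811 and 492 units in non-transgenic muscle. The groups overlapped almost wholly (-0.01 ± 0.37, adjusted p = 0.993 with limma). Meg3, a long non-coding RNA, read 1385 and 2000 units against 1278 and 1547 units in its brightest probe set (0.24 ± 0.28, adjusted p = 0.819), with overlap.

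The 5 Meg3 probe sets did not agree in size. The other one above the filter had a difference of 0.19 ± 0.38, and 1 of the 3 below the filter was at -0.14, with overlap. The other 2 dim ones were higher on both MCK-PPARb arrays, with 196 and 232 units against 82.9 and 69.7 units (1.49) and with 409 and 200.0 units against 65.3 and 17.7 units. They lie under the filter level, where no detection call was used here, and 36.2% of all probe sets on the array had groups without overlap.

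Peg3, Plagl1 and Mest are paternally expressed genes on chromosomes 7, 10 and 6. Peg3, a zinc finger protein also known as a marker of muscle progenitor cells, read 1995 and 1037 units in MCK-PPARb muscle, against 1139 and 679 units in non-transgenic muscle. The arrays overlapped, and the difference was 0.71 ± 0.40 (adjusted p = 0.593 with limma). The other Peg3 probe set above the filter read 1589 and 1128 units against 556 and 719 units, without overlap (1.08 ± 0.31, adjusted p = 0.258). The third, below the filter, was at 0.58. All 3 Peg3 probe sets were therefore positive and none passed.

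Plagl1, a zinc finger transcription factor that slows the cell cycle, read 1679 and 1278 units in MCK-PPARb muscle, against 1348 and 1425 units in non-transgenic muscle. The groups overlapped (0.08 ± 0.26, adjusted p = 0.947 with limma). The sign turned to -0.03 with median centring, and a dim second probe set, with 33.6 and 42.6 units against 116 and 102 units, was at -1.52. Mest, a protein of the alpha/beta hydrolase fold, read 1261 and 1141 units against 1467 and 1392 units. Both MCK-PPARb arrays were slightly lower, by a margin close to the error (-0.25 ± 0.24, adjusted p = 0.785).

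**Figure D2:**
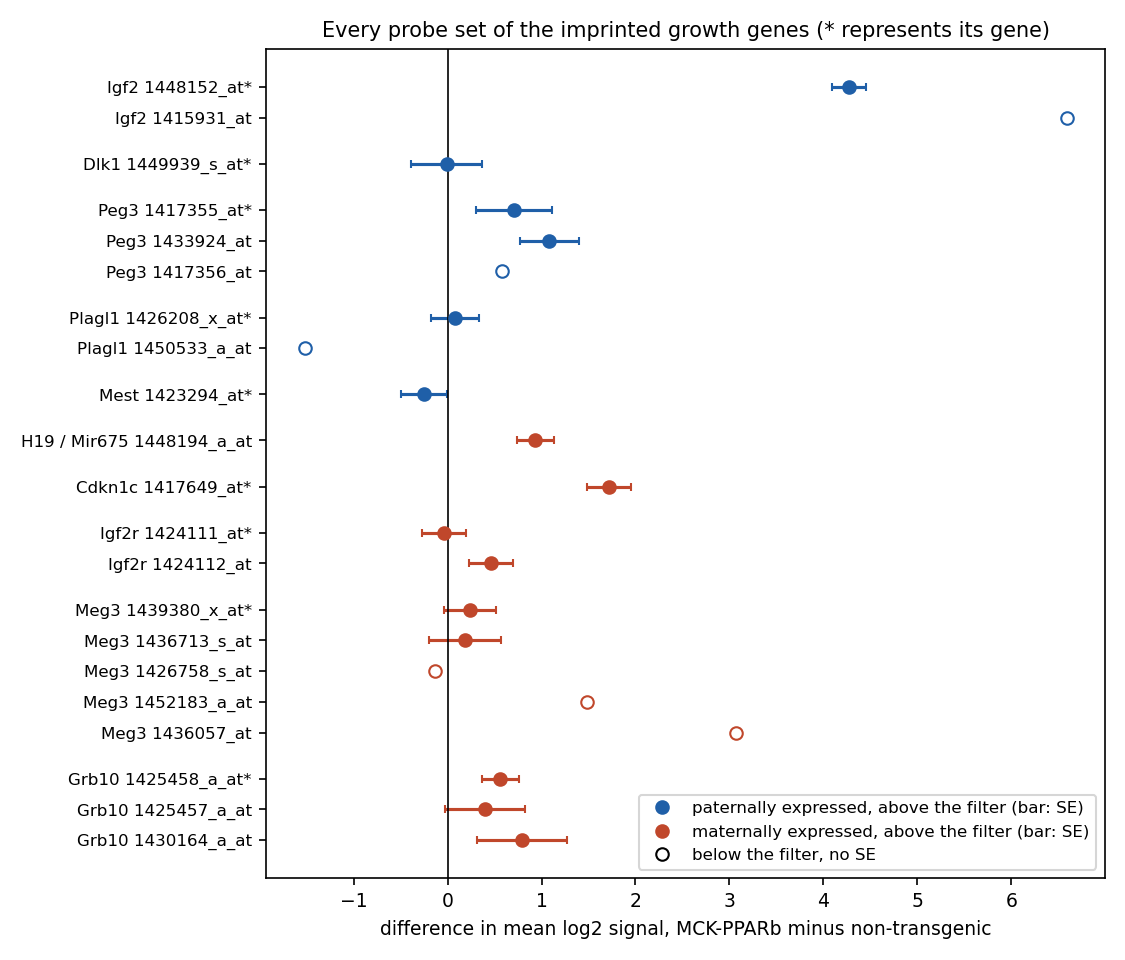
Difference in mean log2 signal, MCK-PPARb minus non-transgenic, for the 20 probe sets and the H19 and Mir675 probe set, blue for paternally and red for maternally expressed genes; bars are SE (n = 2 per group), and open points lie below the filter and have none. Igf2 (4.27) and Cdkn1c (1.72) stand right of the others that are above the filter, and probe sets of Plagl1, Igf2r and Meg3 fall on both sides of 0.

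The probe set chosen for Igf2r and Peg3 was only slightly brighter than the next. Mean signals over the 4 arrays, on the scale of the log2 means, were 2754 against 2140 units for Igf2r and 1125 against 920 units for Peg3. The gap was wider for Meg3 (1530 against 654 units), Igf2 (19060 against 155 units), Grb10 (5114 against 658 units) and Plagl1 (1425 against 64.1 units).

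Igf2, which chose the set, is left out of the calls. Of the other 8 genes, 1 was called, Cdkn1c, which was higher, and no gene was called lower. Over all 6841 genes above the filter, 0.731% were called, 0.409% higher and 0.322% lower, and over all kept probe sets 0.601%. Nothing is read from this count, since the genes were chosen with results of this comparison known. Of the same 8 genes, the groups did not overlap for Cdkn1c and Grb10, both higher, and for Mest, lower. The same held for 42.9% of all genes above the filter, so the share among the 8 lay near that of all genes.

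Paternally and maternally expressed genes were set side by side without a test of the classes. Of the 5 paternally expressed genes, 3 had a positive difference, with a median of 0.08 and a range of -0.25 to 4.27. Igf2, which chose the set, is counted here and is the upper end of that range. Of the 4 maternally expressed genes, 3 had a positive difference, with a median of 0.40 and a range of -0.04 to 1.72. The ranges of both classes overlapped. With Igf2 left out of the calls, Cdkn1c, of the maternal class, was the gene called. Over all genes above the filter the median was 0.01, with the 25th percentile at -0.23 and the 75th at 0.25. The paternal median minus the maternal one was -0.32. With the H19 and Mir675 probe set counted, a choice made after seeing the data, the maternal median was 0.56 and the contrast -0.48. The contrast was 0.00 without non-transgenic replicate 1 and -0.07 without MCK-PPARb replicate 2. It was -0.79 where the probe sets of a gene were averaged and -0.80 without probe sets of the suffixes _s_at and _x_at. Both of these drew on probe sets below the filter. Without the suffixes, Plagl1 was read from a probe set of mean signal 64.1 units and Meg3 from one of 127 units. The size of the contrast thus depended on these choices.

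The neighbours of Igf2 and H19 on chromosome 7 were then followed in order, from Ctsd to Osbpl5, a window chosen after seeing the data. It held 25 genes with a probe set of their own symbol, 17 of them above the filter. With Igf2 left out of the calls, Cdkn1c was the gene called. The groups did not overlap for 12 of the 25, 9 higher and 3 lower, against 38.2% of all genes with a probe set. Igf2, which chose the set, is counted among the 9. The median difference was 0.20, and 0.12 without Igf2 and Cdkn1c.

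Next to H19 on its far side, the fast troponin genes Tnnt3 (-0.39 ± 0.29) and Tnni2 (-0.23 ± 0.30), Mrpl23, a mitochondrial ribosomal protein (-0.15), and Ctsd, the lysosomal protease cathepsin D (0.09), did not pass. The sign of Tnni2 turned with quantile normalization (0.09) and without non-transgenic replicate 1 (0.19), and that of Tnnt3 without that array (0.01). Lsp1, an actin-binding protein of leukocytes, read 1474 and 1854 units in MCK-PPARb muscle, against 4336 and 2355 units in non-transgenic muscle. It was lower on both MCK-PPARb arrays and did not pass (-0.95 ± 0.32, adjusted p = 0.338 with limma).

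Between Igf2 and Cdkn1c, Igf2os, an antisense transcript of Igf2, read 540 and 574 units in MCK-PPARb muscle, against 304 and 451 units in non-transgenic muscle. It was 0.59 higher on the log2 scale, without overlap, which did not pass. Cd81, a tetraspanin, was at -0.11, and Ins2, Ascl2 and Tspan32 lay below the filter with overlapping groups. Kcnq1, the potassium channel gene beside Cdkn1c, lay below the filter and read 516 and 147 units against 70.1 and 54.6 units. Of the 13 genes fixed as neighbours of Igf2 and H19 that were on the array, 8 were above the filter, none was called with limma, 1 had an unadjusted p under 0.05, and the median was -0.19. Without non-transgenic replicate 2, 1 of them, Lsp1, was called (-1.39, adjusted p = 0.0465).

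**Figure D3:**
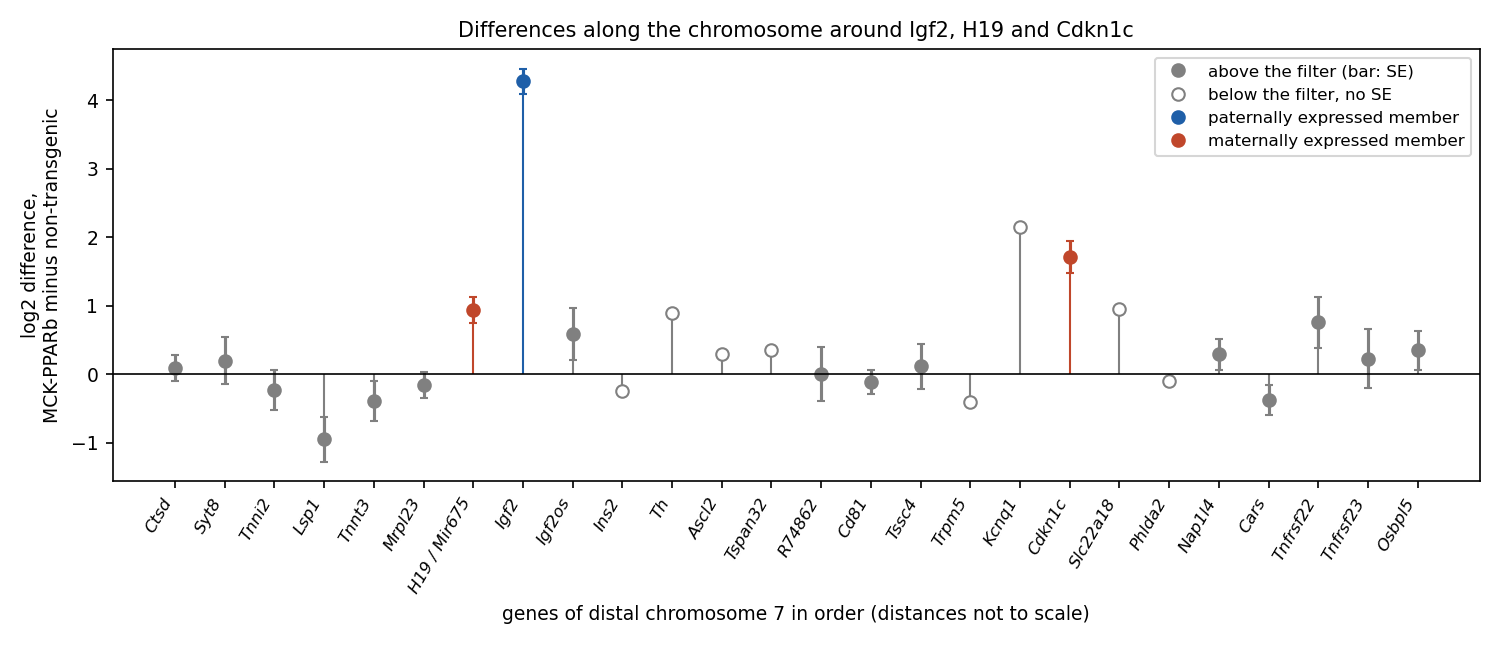
Log2 difference, MCK-PPARb minus non-transgenic, of 25 genes and the H19 and Mir675 probe set in their order on distal chromosome 7 (distances not to scale); bars are SE, and open points are genes below the filter. Igf2 (4.27), Cdkn1c (1.72) and the H19 and Mir675 probe set (0.94) rise above the neighbours that are above the filter, which lie between -0.95 and 0.76.

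Other imprinted genes showed no call. The list holds genes imprinted in some mouse tissue, placenta and brain included. Of 20 paternally expressed genes on the array, 8 were above the filter, with a median of 0.43 (0.16 to 0.49 over the alternatives). None was called with limma and 2 had an unadjusted p under 0.05, as did 10.9% of all genes above the filter, the share against which such counts in the other lists are also to be read. Slc38a4, an amino acid transporter, read 4141 and 3311 units in MCK-PPARb muscle, against 6875 and 5338 units in non-transgenic muscle, lower on both (-0.71 ± 0.22, adjusted p = 0.298). Gab1, a docking protein of growth factor receptors (0.51), Mcts2 (0.49), Ndn, the growth suppressor necdin (0.49), and Airn, the antisense RNA of Igf2r (0.48), did not pass.

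Of 32 maternally expressed genes on the array, 17 were above the filter, with a median of 0.04. None was called with limma, and 3 had an unadjusted p under 0.05. Gatm, the first enzyme of creatine synthesis, read 1104 and 1036 units in MCK-PPARb muscle, against 372 and 286 units in non-transgenic muscle. It was higher on both MCK-PPARb arrays (1.71 ± 0.33, adjusted p = 0.0939) and was kept only through them, since its non-transgenic signals lie below the filter level. Pon2, a lactonase (-1.52 ± 0.40, adjusted p = 0.210), and Blcap (-1.03 ± 0.31, adjusted p = 0.276) were lower on both MCK-PPARb arrays and did not pass. Pon2 was kept only through the non-transgenic arrays, since both its MCK-PPARb signals lie below the filter level. Rian, a non-coding RNA beside Meg3, was at 0.68 ± 0.48 with overlap, and Ube3a, a ubiquitin ligase, at 0.48 ± 0.35 with overlap. Osbpl5 (0.35) and Nap1l4 (0.29), near Cdkn1c, were slightly higher on both MCK-PPARb arrays, and Dhcr7 (-0.31) was lower on both. Of the 17, the groups did not overlap for 4 higher and 4 lower, against 42.9% of all genes above the filter.

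The genes that receive and relay the IGF2 signal showed no call either. IGF2 acts through the IGF1 receptor and the insulin receptor, and binding proteins hold it in the extracellular space. Of 18 ligands, receptors and binding proteins on the array, 11 were above the filter, with a median of -0.08. None was called with limma and 2 had an unadjusted p under 0.05. Igf1, the related growth factor, read 3363 and 2551 units in MCK-PPARb muscle, against 3014 and 4892 units in non-transgenic muscle, with overlap (-0.39 ± 0.28, adjusted p = 0.692). Igf1r, its receptor, read 770 and 509 units against 845 and 515 units (-0.08). Igfbp7 (-0.60 ± 0.21), Igfbp3 (-0.58 ± 0.36) and Igfals, the subunit that stabilises circulating IGF complexes (-0.74 ± 0.30), were lower on both MCK-PPARb arrays and did not pass. Igfbp3 was kept only through the non-transgenic arrays, with 398 and 338 units in MCK-PPARb muscle. Stc1, an inhibitor of binding protein cleavage, was at 0.40. Insr, the insulin receptor, was below the filter, with 531 and 251 units against 152 and 144 units.

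Of 22 genes of the relay on the array, 19 were above the filter, with a median of 0.20 (-0.01 without non-transgenic replicate 2). None was called with limma and 4 had an unadjusted p under 0.05. Irs1, the receptor substrate, was lower on both MCK-PPARb arrays (-1.26 ± 0.34, adjusted p = 0.230), and was called without non-transgenic replicate 1 (-1.82, adjusted p = 0.00455). Grb14, a relative of Grb10 that also dampens insulin signalling, read 3089 and 4024 units in MCK-PPARb muscle, against 1950 and 2311 units in non-transgenic muscle (0.73 ± 0.23, adjusted p = 0.306). Grb2, an adapter toward Ras (0.67), Pdk1, the pyruvate dehydrogenase kinase of that symbol (0.63), and Pik3r1, a regulatory subunit of PI3 kinase (0.50), were also higher on both without passing. Pdk1 was put on the list by its symbol; the kinase of this relay is encoded by Pdpk1.

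Genes of the imprinting and DNA methylation machinery, histone methyltransferases included, had a median of 0.01 over the 11 above the filter of 17 on the array. None was called with limma, and 0 had an unadjusted p under 0.05. Ehmt2, a histone methyltransferase, had a difference of 0.59 ± 0.33, Mbd2 of -0.54 ± 0.27, Mbd3 of -0.27 and Trim28, a corepressor that protects imprints, of 0.16. Among the 13 genes of muscle formation and perinatal muscle above the filter, of 21 on the array, 0 rose and 1 fell, and the median was 0.06. The gene that fell was Actc1, the cardiac alpha-actin typical of fetal muscle, with 3228 and 6023 units in MCK-PPARb muscle, against 149762 and 69947 units in non-transgenic muscle (-4.54 ± 0.41, adjusted p = 0.00562). Chrna1, an acetylcholine receptor subunit, read 3362 and 3100 units against 1369 and 1240 units (1.31 ± 0.22, adjusted p = 0.0606), and Myh8, the perinatal myosin, 657 and 834 units against 260 and 407 units (1.19 ± 0.39, adjusted p = 0.329). Myh8 was kept only through the MCK-PPARb arrays. Myog, a regulator of muscle differentiation, was at 0.92 ± 0.43, Mef2d at 0.70 ± 0.22 and Myf6 at -0.41 ± 0.27. Chrna1 passed without non-transgenic replicate 1 (1.38, adjusted p = 0.0410) and under 4 other alternatives.

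The other 8 genes of this list lay below the filter and were not tested. Among them Myh3, the embryonic myosin, read 1201 and 1561 units in MCK-PPARb muscle, against 59.9 and 182.5 units in non-transgenic muscle. Chrng, the fetal acetylcholine receptor subunit, read 82.9 and 312 units against 47.9 and 51.6 units, Ncam1, an adhesion molecule, 538 and 678 units against 297 and 260 units, and Tnnt2, the cardiac troponin T, 310 and 747 units against 198 and 267 units. These 4, named after their values were seen, were higher on both MCK-PPARb arrays, the opposite direction to Actc1. Of the rest, Myf5 was at 0.56 without overlap. Pax7 (0.09), Pax3 (0.02) and Mymk (-0.70) had overlapping groups. Groups without overlap, in either direction, were found for 38.2% of all genes with a probe set.

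**Figure D4:**
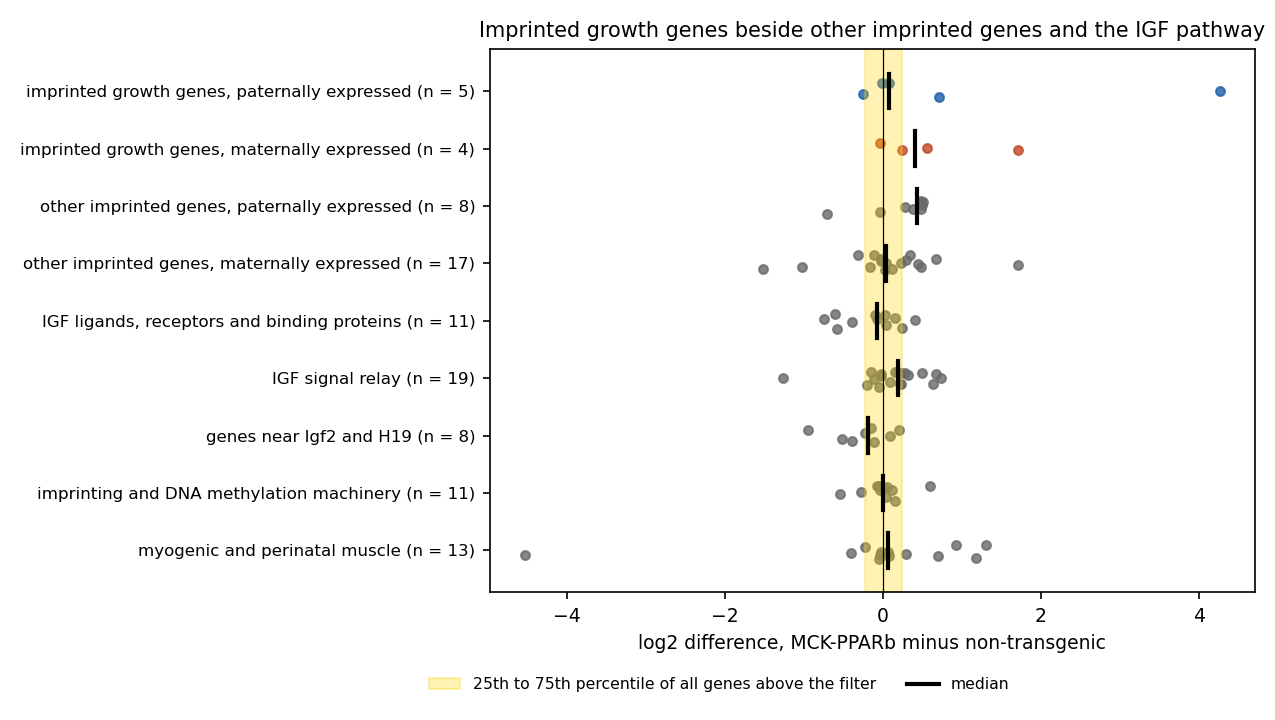
Log2 difference, MCK-PPARb minus non-transgenic, of each gene above the filter in the imprinted growth genes and in 7 other lists; points are genes, black bars are list medians and the yellow band spans the 25th to the 75th percentile of all genes above the filter (-0.23 to 0.25). Igf2 at 4.27 is the highest point of the paternally expressed row and Actc1 at -4.54 the lowest of all.

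By distance between centred log2 signals over the 4 arrays, the genes whose profile was most like that of Igf2 were Atp1b4 (distance 0.27 in log2 units), Hspa1a (0.32), Hspa1b (0.70), Cdkn1a (0.85) and Enpep (1.28). Atp1b4 belongs to the family of sodium pump beta subunits, Hspa1a and Hspa1b are heat shock genes, Cdkn1a encodes the kinase inhibitor p21 and Enpep is an aminopeptidase. The first of them, Atp1b4, read 2340 and 1842 units in MCK-PPARb muscle, against 123 and 88.8 units in non-transgenic muscle, and was kept only through the MCK-PPARb arrays. With 4 arrays in 2 groups, this distance mainly picks genes with a similar difference between the groups. For the H19 and Mir675 probe set the nearest were Fabp3, a fatty acid binding protein (0.09), Retreg3 (0.10) and Gusb, a lysosomal enzyme (0.12). For Cdkn1c, added after the values were seen, they were Gatm (0.21), St6galnac4 (0.22) and Gpt, an alanine aminotransferase (0.30).

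Markers of other cells were read beside these results, since several imprinted genes are also expressed in progenitor cells, connective tissue and nerve, and since fewer cells of a type and less RNA per cell cannot be told apart in whole muscle. Medians are over the markers above the filter, while summed signals are over all markers of a list on the array. Of 9 markers of satellite cells and myoblasts on the array, 4 were above the filter, with a median of 0.07. The sums of all 9 were 8322 and 8609 units in MCK-PPARb muscle, against 8078 and 7749 units in non-transgenic muscle. All 10 fibroblast markers were above the filter (median -0.15), with sums of 298002 and 247322 units against 309091 and 267990 units. For endothelial markers, 10 of 10, the median was -0.15, and for leukocyte markers, 8 of 10, it was 0.11.

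Schwann cell and nerve markers, 3 of 10 above the filter, had a median of 0.67. Sums over the 7 on the array were 30471 and 34182 units in MCK-PPARb muscle, against 18280 and 20201 units in non-transgenic muscle. The other 4 on the array, Nefl, Nefm, S100b and Mag, lay below the filter, with differences of -1.56, -1.22, -0.94 and -0.13. Adipocyte markers, 5 of 10, had a median of 0.68. Sums over the 7 on the array were nevertheless 95624 and 81310 units against 120402 and 146892 units, since Car3, of high signal, was lower (-1.46). Slow muscle fibres express Car3 as well. Adipoq (1.03), Retn (1.02) and Lpl (0.68) were higher. Fabp4 (-0.23) and, below the filter, Lep (-0.80) and Cidec (-0.47) were lower. No marker was listed at 0, and none of the markers on these lists was called. The part of these cells in the signals of Igf2, H19, Cdkn1c or Grb10 was not tested.

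**Figure D5:**
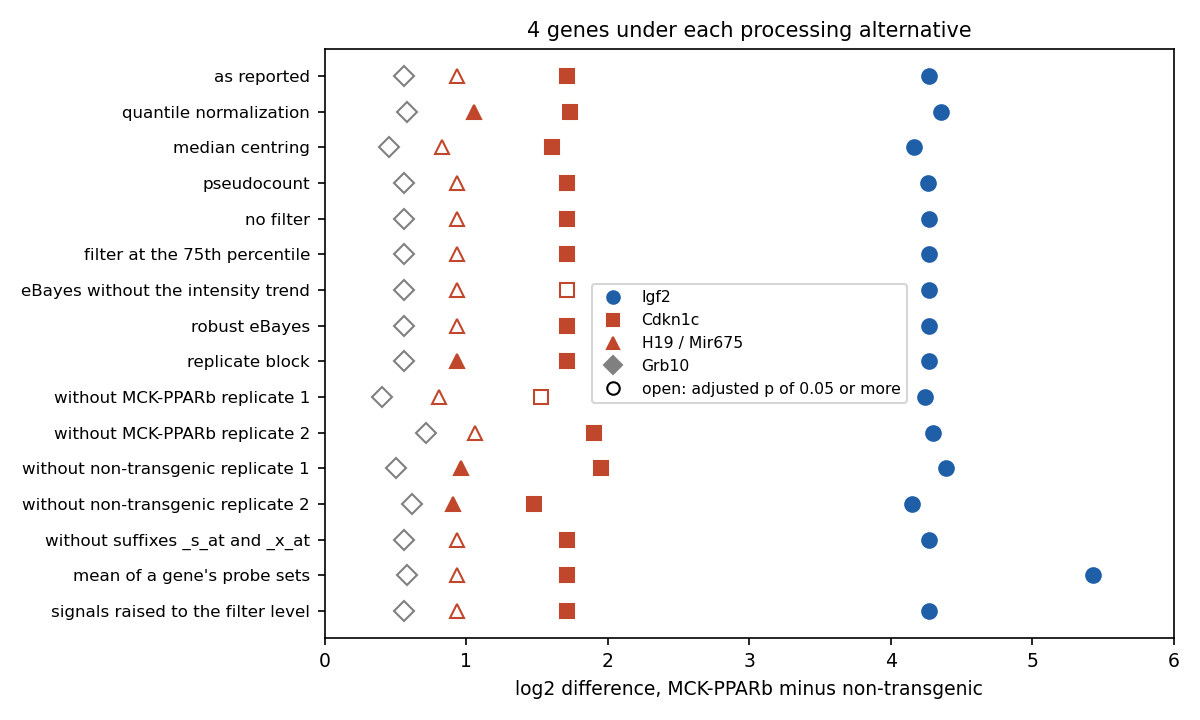
Log2 difference, MCK-PPARb minus non-transgenic, of Igf2, Cdkn1c, the H19 and Mir675 probe set and Grb10 (x axis) under each processing alternative (y axis); filled symbols of the other 3 have an adjusted p under 0.05 with limma, and Igf2 is drawn filled throughout, without a test. Igf2 stays between 4.15 and 5.43, Cdkn1c between 1.48 and 1.96, the H19 and Mir675 probe set between 0.81 and 1.06 and Grb10 between 0.41 and 0.72.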

How the data were processed

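Total RNA of gastrocnemius muscle was measured on Affymetrix expression arrays, 2 of MCK-PPARb and 2 of non-transgenic mice. The authors deposited a linear signal intensity for each probe set on each array. The submitters' processing notes name MAS5 and GCOS, without a version. No column belonged to another sample. Of 22690 probe sets, 64 controls were left out; 20380 carried 1 gene symbol, 691 several and 1555 none here. For 20351 the current symbol was looked up by gene number.

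Signals were put on the log2 scale without a pseudocount, kept above a mean log2 signal equal to 444 units, and compared with limma 3.58.1 in R 4.3.3 (lmFit, eBayes with an intensity trend, both directions, Benjamini-Hochberg over 11313 probe sets). The number of arrays limits the precision. The fit was also run in 20 simulations with known differences. Where the true log2 difference was 1, it recovered 7.91% of the altered probe sets. The share was 70.6% at a true difference of 2 and 97.9% at 4. A missing call therefore says little about differences near 1. The members, lists and tests were chosen with earlier results of these data known. Named genes are the members and, from each list, called genes and up to 5 of largest difference above the filter; others named were chosen after their values were seen.

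The alternatives covered scaling (quantile, median centring), a pseudocount of 33.9 units, the filter (none, or the 75th percentile), eBayes (without trend, robust), a replicate block, each array left out, probe sets without the suffixes _s_at and _x_at, averaging of probe sets per gene, a floor at the filter level, and an adjusted p under 0.1. Replicate numbers are shared by the groups in the labels, but nothing says that they pair the mice.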

Additional observations from a re-analysis of the deposited data

How the results depend on the processing

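Of 681 alternative values for the differences of 46 genes, 648 kept direction and call, 14 newly passed, 2 no longer passed (both Cdkn1c) and 17 turned in sign. The causes were not tested. Median centring moved the median of all genes by -0.11 and gave 48 probe sets called higher and 68 lower (41.4% higher, against 55.9%). With it the maternal median was 0.2971, and the medians of the lists were 0.3275 (other paternally expressed), -0.0704 (other maternally expressed), -0.182 (IGF ligands, receptors and binding proteins), 0.0928 (IGF relay), -0.0973 (methylation) and -0.0442 (myogenic). Plagl1 was at -0.0263. With quantile normalization the other paternally expressed median was 0.3412 and Tnni2 was at 0.0874.

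Without a filter the medians were 0.2215 and 0.1805 for the other paternally and maternally expressed genes and 0.0322 for the IGF ligands. The filter at the 75th percentile gave 0.0264 for the IGF ligands. The calls in the myogenic list were 2 with that filter, with robust eBayes, with averaged probe sets and at an adjusted p under 0.1, which also gave 81 probe sets higher, 69 lower and 1 other maternally expressed gene. Without the trend Cdkn1c was not called, and 13 probe sets were higher and 8 lower. Without suffixes, the paternal median was 0.2284, the maternal one 1.024, the contrast -0.7955 and Plagl1 -1.523. Plagl1 and Meg3 were then read from probe sets below the filter, which averaging also includes. With averaged probe sets, the maternal median was 0.778, the contrast -0.7883, the list medians 0.3669 and 0.1158 (other paternally and maternally expressed), -0.234 (IGF ligands), 0.0417 (relay) and 0.0988 (methylation), Plagl1 -0.7217 and Igf2r 0.2097. Counting the H19 and Mir675 probe set, chosen after seeing the data, gave 0.5629 and -0.4832.

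The replicate block called 209 probe sets higher and 168 lower, 2 other maternally expressed genes (Gatm and Pon2), 1 relay gene (Irs1), 2 myogenic genes and the H19 and Mir675 probe set. Deviations of same-numbered arrays correlated at 0.276, and nothing shows that the numbers pair the mice.

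With each array left out in turn, 1 to 2 members, Igf2 counted, and 21 to 111 probe sets were called higher, and 24 to 83 lower. The paternal median ran from 0.1198 to 0.3505 and the contrast from -0.3812 to 0.0028. The list medians ran from 0.1571 to 0.464 (other paternally expressed), -0.0058 to 0.0947 (other maternally expressed), -0.0068 to 0.0172 (IGF ligands), -0.0087 to 0.2691 (relay), -0.1345 to 0.0677 (methylation) and 0.0517 to 0.3489 (myogenic). The calls ran from 0 to 1 in the relay and near Igf2, and from 1 to 3 in the myogenic list. Differences that turned in sign ran from -0.3711 to 0.3505 for Dlk1, -0.1175 to 0.2768 for Plagl1, -0.0192 to 0.9788 for Airn, -0.018 to 1.374 for Rian, -0.0221 to 0.5083 for Meg3. They also ran from -0.2716 to 0.1903 for Igf2r, -0.0809 to 1.048 for Ube3a, -0.7925 to 0.0103 for Tnnt3, -0.655 to 0.1947 for Tnni2 and -0.0038 to 0.4047 for Syt8. The 2 arrays per group limit the precision.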

Other observations

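Several imprinted or receptor genes below the filter differed without overlap of the groups, as did 36.2% of all probe sets. The genes named here were chosen after their values were seen, and those below the filter were not tested. Slc22a18, an organic cation transporter gene beside Cdkn1c, read 401 and 375 units in MCK-PPARb muscle, against 199 and 203 units in non-transgenic muscle. Th, which encodes tyrosine hydroxylase and lies near Ins2, read 300 and 241 units against 101 and 208 units. Peg10, of the other paternally expressed genes, read 206 and 222 units against 47.4 and 23.5 units. Nap1l5, of the same list, read 109.4 and 144.5 units against 34.5 and 93.4 units. Asb4, of the other maternally expressed genes, went the other way, with 337 and 68.3 units against 434 and 796 units. Tnfrsf22, a decoy receptor gene near Cdkn1c that lay above the filter, read 1065 and 626 units against 533 and 438 units. It did not pass with limma (0.76 ± 0.38, SE, adjusted p = 0.551). Cars, also near Cdkn1c and above the filter, was lower, with 1706 and 2008 units against 2424 and 2384 units. It did not pass either (-0.38 ± 0.22, adjusted p = 0.607 with limma).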
